A study of Mus musculus with 20 samples.

Results

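Transcripts of 6 genes that build ligands for the selectins were followed across sorted mouse CD4 T cells: Fut7, Gcnt1, Selplg, Fut4, St3gal4 and St3gal6. They were picked by name and are 6 of the 30199 gene names on the array. A gene was measured through every probe that carried its symbol, which gave 11 of the 39429 probes, and 10 of these entered the tests. The remaining probe, a second one for Fut4, stayed at the lowest value the scale allows (20) on all 20 arrays. The publication on these arrays discussed Fut7, Gcnt1 and Selplg, so the direction of these 3 is not independent evidence here.

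Selectins are adhesion receptors that catch leukocytes from flowing blood by binding sugars on their surface. On T cells the main carrier of these sugars is P-selectin glycoprotein ligand, encoded by Selplg, a mucin-like protein that binds selectins only after its chains have been built up. The enzyme from Gcnt1 starts the core 2 branch on an O-linked chain, sialyltransferases such as those from St3gal4 and St3gal6 cap the branch with sialic acid, and fucosyltransferases from Fut7 and Fut4 add fucose to complete the sialyl Lewis x structure. Effector T cells that enter inflamed skin depend on these ligands, whereas entry into gut tissue relies on other receptors.

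The cells came from mice of the strain B6.Cg-Foxp3<tm1Mal>, a Foxp3 reporter strain, aged 8 to 14 weeks, and each array held RNA pooled from 8 to 15 mice of both sexes. Naive T cells, T follicular helper (TFH), regulatory T (Treg) and T follicular regulatory (TFR) cells were sorted from peripheral lymph nodes (pLN) after subcutaneous immunisation with keyhole limpet hemocyanin in alum, with 2 arrays per cell type on day 12 (d12) and 1 on day 25 (d25). From Peyer's patches (PP), lymphoid organs of the gut wall for which the labels give no day, Treg, TFR and TFH cells with (GL7+) or without (GL7-) the carbohydrate epitope GL7 were sorted, with 2 arrays each. The gates used Foxp3 reporter, PD1 and GL7, and TFH cells of pLN were GL7+ while TFR cells were taken whatever their GL7. All values below are normalised intensity on 1 common scale, and each probe is compared only with itself across arrays, because the brightness of different probes cannot be set side by side.

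Foxp3 separated the sorts, with 13409 to 35129 on all Treg and TFR arrays and 27.0 to 192 on all others. Between 43.0 and 58.0% of probes were detected per array, and replicate arrays correlated with r of 0.955 to 0.986 across probes. The first PP replicate of each cell type lay on slide 4, which differed from the other slides in markers of B cells and epithelium. All 12 B-cell markers were detected on each of its arrays, at summed intensities of 26400 to 185057 against 6847 to 15765 on slide 5 with the second PP replicates and 4604 to 22921 on the pLN slides. Epithelial markers summed to 3525 to 8234 on slide 4 and to 743 to 2264 on slide 5. Myeloid markers were instead highest on slide 5, at 24808.5 to 35013, against 20492.5 to 24282 on slide 4 and 10508 to 22817 on the pLN slides. Their part in the differences between PP and pLN was not tested. For the differences between PP and pLN, values without slide 4 are given with each gene that was picked by name. No such values are given for the other genes of the pathway or the regulators, which were taken as lists. In bulk RNA, fewer expressing cells and less RNA per cell cannot be told apart.

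Fut7 was read by its leading probe, the brightest of its 2 probes, at chr2:25281802-25281861 on the plus strand of mm9, the build of the array annotation. No annotation of that build was used here, so the exon or untranslated region under a probe is not given. In pLN d12 its intensity was 192 and 595 in naive cells, 2039 and 3111 in TFH cells, 2972 and 1958 in Treg cells, and 9934 and 10235 in TFR cells. TFR cells thus lay above both other effector groups on each array, TFH and Treg cells overlapped, and naive cells lay lowest. On d25 the single arrays read 364 in naive, 2724 in TFH, 1225 in Treg and 7312 in TFR cells, so that TFR cells were again highest and naive cells lowest. In PP the values were 160 and 164 in Treg cells, 268 and 343 in TFR cells, 97.5 and 104 in GL7+ TFH cells, and 65.6 and 93.2 in GL7- TFH cells. Every PP array lay below every Treg, TFH and TFR array of pLN, and the PP TFR arrays fell inside the range of pLN d12 naive cells.

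Gcnt1 had 3 probes, of which the leading one lies at chr19:17400787-17400846 on the minus strand of mm9. In pLN d12 it read 60.3 and 273 in naive cells, the first not above background, then 1842 and 1085 in Treg cells, 2990 and 3727 in TFH cells, and 4841 and 6219 in TFR cells. The 4 groups did not overlap. The d25 arrays kept that order, at 210 in naive, 884 in Treg, 3048 in TFH and 8898 in TFR cells. In PP it read 519 and 183 in Treg cells, 608 and 210 in TFR cells, 347 and 240 in GL7+ TFH cells, and 534 and 510 in GL7- TFH cells. All 4 PP groups stayed under every Treg, TFH and TFR array of pLN and, apart from GL7- TFH against GL7+ TFH cells, overlapped each other.

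**Figure D1:**
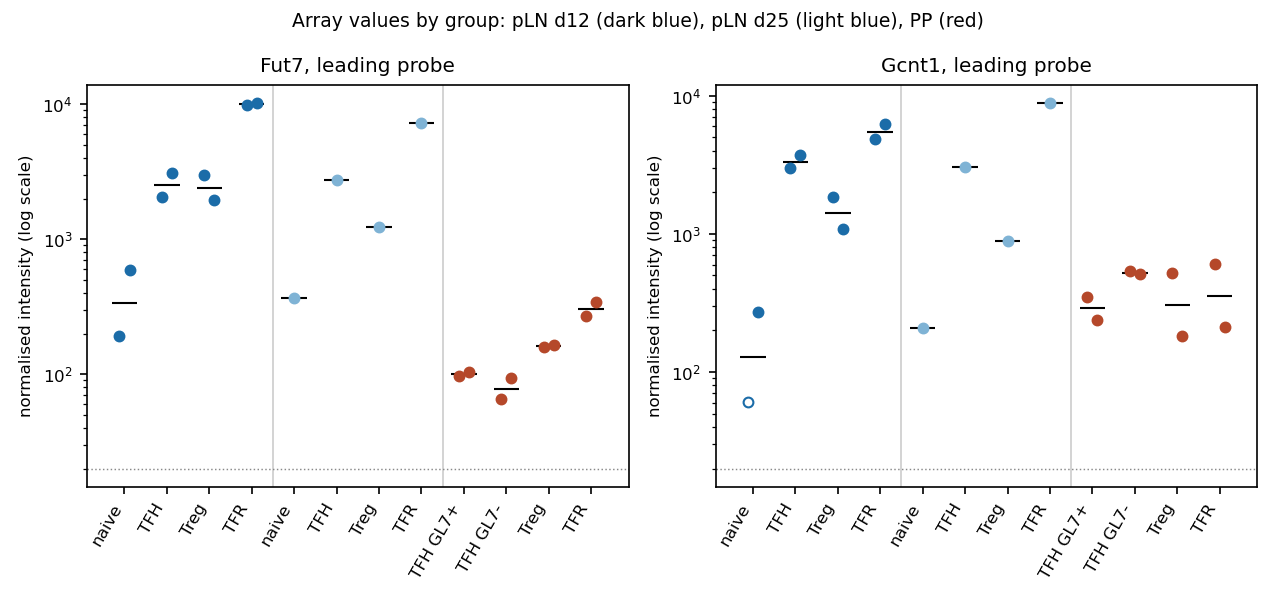
Normalised intensity (log scale) of the leading Fut7 and Gcnt1 probes on each of the 20 arrays, by cell type in pLN d12, pLN d25 and PP. Points are arrays (open where the probe was not above background), bars are group means of log2 values and the dotted line is the floor of 20. The pLN Treg, TFH and TFR arrays sit between 1225 and 10235 for Fut7 and between 884 and 8898 for Gcnt1, above all PP arrays.

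Because Fut7 and Gcnt1 were low together in PP, the sequence before their outermost annotated starts is shown, with a further start for Gcnt1. Each is 250 bases, 5′ to 3′, ending at the base before the transcription start, from RefSeq on GRCm38.p6. This build differs from mm9, and 5 of the 6 genes matched an entry in the table, with 9 windows. The motifs searched on both strands were GGTGTGA, a site bound by T-box factors, AGGTCA, an element of nuclear receptors such as those for retinoic acid and vitamin D, and CACCC, a core bound by Krüppel-like factors that can overlap the reverse complement of GGTGTGA. Capitals mark CACCC or its reverse complement.
Fut7, chr2:25422992-25423241, plus strand: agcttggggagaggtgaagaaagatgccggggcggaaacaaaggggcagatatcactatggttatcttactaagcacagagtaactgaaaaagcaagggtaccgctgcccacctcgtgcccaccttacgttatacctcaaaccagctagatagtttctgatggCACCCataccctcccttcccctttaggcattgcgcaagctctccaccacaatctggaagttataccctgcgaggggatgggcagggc
Gcnt1 outer start, chr19:17372845-17373094, minus strand: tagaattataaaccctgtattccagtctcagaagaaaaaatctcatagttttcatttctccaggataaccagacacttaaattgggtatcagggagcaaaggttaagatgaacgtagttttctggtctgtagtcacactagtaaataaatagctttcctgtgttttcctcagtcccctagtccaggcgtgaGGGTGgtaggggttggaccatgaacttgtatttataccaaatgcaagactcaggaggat
Gcnt1 next start, chr19:17356668-17356917, minus strand: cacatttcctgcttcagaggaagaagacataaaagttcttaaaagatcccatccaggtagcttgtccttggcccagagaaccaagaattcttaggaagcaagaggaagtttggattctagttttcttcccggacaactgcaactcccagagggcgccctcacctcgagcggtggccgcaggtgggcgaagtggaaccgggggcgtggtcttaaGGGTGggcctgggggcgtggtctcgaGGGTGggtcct
CACCC was present once before the outer Fut7 start, 87 to 83 bases upstream, once before the outer Gcnt1 start and 2 times before the next one. It was found in 7 of the 9 windows of the 5 genes, and in 52.0% of all 32851 windows of this length. Neither GGTGTGA, present in 3.33% of all windows, nor AGGTCA, present in 14.0%, was found in any of the 9.

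The comparison of PP with pLN asked whether cells of 1 type differ by the tissue they came from. The labels name immunisation and a day for every pLN sample and neither for PP samples. Tissue, immunisation, time and slide therefore cannot be told apart in these differences. Fut7 was lower in PP in all 3 cell types and Gcnt1 in TFH and TFR cells, while Selplg did not pass the test in any. A gene was called at an adjusted p under 0.05 (limma, Benjamini-Hochberg over 22264 probes) with a log2 difference of at least 1 in size. By that rule 1 of the 6 genes was called in Treg cells, where 2.24% of all probes were called and 0.422% were called lower in PP. In TFH cells 2 were called (4.54% of probes, 2.18% lower), in TFR cells 2 (11.1% of probes, 5.39% lower) and in the average of the 3 cell types 3 (9.34% of probes, 4.08% lower). All these calls of the 6 genes were lower in PP. The median log2 difference of the 6 genes in the average was -1.01, and over all tested probes it was -0.00, with the middle 50% of probes between -0.31 and 0.33.

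Fut7 fell by 3.90 on the log2 scale in PP Treg cells (SE 0.45, limma adjusted p = 0.00185), which is 14.9-fold. The difference was -4.64 in GL7+ TFH cells (SE 0.45, limma adjusted p = 0.000775), or 25.0-fold, and -5.05 in TFR cells (SE 0.45, limma adjusted p = 0.00017), or 33.2-fold. Averaged over the cell types it was -4.53, with a 95% interval from -5.11 to -3.95. Its dimmer second probe was called in the same direction in each cell type, with an average difference of -3.90. That probe was above background on no PP Treg or GL7+ TFH array and on 1 PP TFR array. The size of its difference therefore depends on the floor of 20. Without slide 4 the differences were of nearly the same size, -3.88 in Treg, -4.60 in TFH and -4.88 in TFR cells, but with 1 PP array left the Treg and TFH calls were lost (limma adjusted p = 0.0776 and 0.0569). Each slide held 1 tissue, so no tissue difference could be taken within a slide. With slide as a random block all 3 Fut7 calls remained, the highest limma adjusted p being 0.0446.

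Gcnt1 was 11.6-fold lower in PP TFH cells (log2 difference -3.53, SE 0.73, limma adjusted p = 0.0223) and 15.3-fold lower in PP TFR cells (-3.94, SE 0.73, limma adjusted p = 0.00595). In Treg cells the difference of -2.20 did not pass (95% interval from -3.82 to -0.57, limma adjusted p = 0.182). The average was -3.22, a 9.34-fold drop, and both other probes agreed in direction, at -3.46 and -2.79. The TFH call was lost without either array of either group (limma adjusted p from 0.0819 without pLN d12 TFH replicate 1 to 0.123 without PP GL7+ TFH replicate 2, and values from -3.80 to -3.27). It was also lost without slide 4, at -3.80, where the Treg, TFR and average values were -2.95, -4.71 and -3.82. The TFH call was lost as well with slide as a random block (limma adjusted p = 0.13), which likewise ended the call of the average (limma adjusted p = 0.109).

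**Figure D2:**
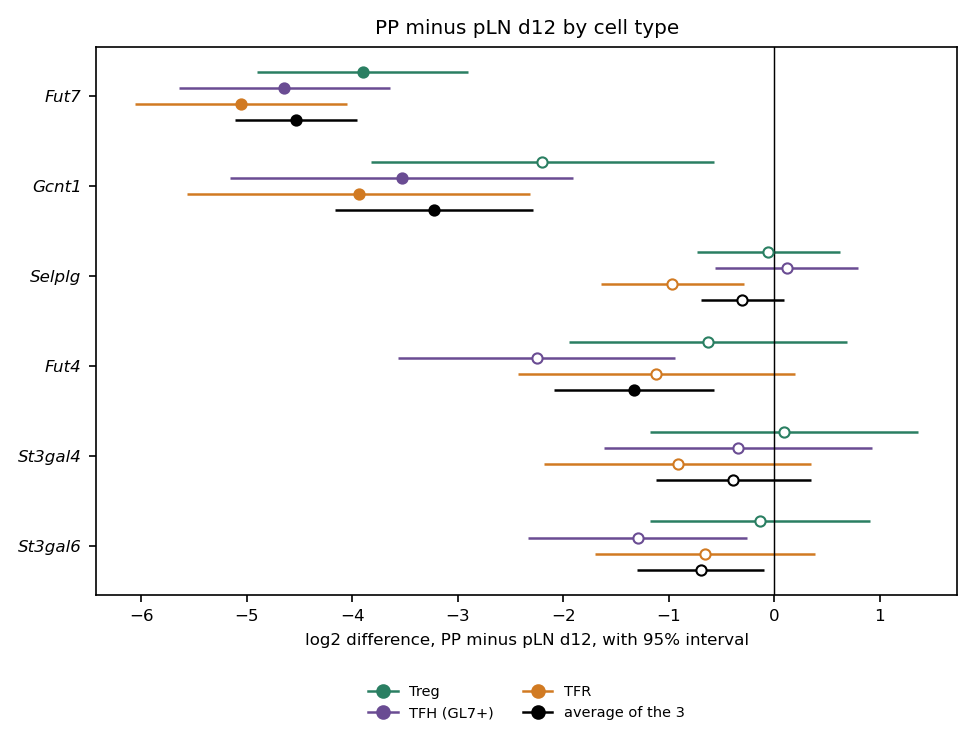
log2 difference of PP minus pLN d12 for the leading probe of each gene in Treg, GL7+ TFH and TFR cells and in their average, with 95% intervals from the limma fit. Filled points passed the threshold. Fut7 lies between -5.05 and -3.90, Gcnt1 between -3.94 and -2.20, and Selplg between -0.96 and 0.12.

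Selplg, the protein carrier, did not follow the 2 enzymes. Its leading probe, annotated at chr5:114267807-114267834 on the minus strand of mm9, read 55602 and 50894 in pLN d12 Treg cells and 64922 and 40337 in PP Treg cells. It read 8195 and 9841 in pLN d12 TFH cells and 11767 and 8091 in PP GL7+ TFH cells. Both pairs of groups overlapped. In TFR cells the values were 29709 and 22891 in pLN and 14564 and 12259 in PP, with no overlap. The log2 differences were -0.06 in Treg cells (95% interval from -0.73 to 0.62), 0.12 in TFH cells (from -0.56 to 0.80) and -0.96 in TFR cells (from -1.64 to -0.29, limma adjusted p = 0.0569). The TFR difference passed when arrays were scaled without quantile normalisation (-1.29, limma adjusted p = 0.0175) and with normexp background correction (-1.02, limma adjusted p = 0.0437). Without slide 4 the Selplg differences were -0.40, -0.15 and -1.09 in Treg, TFH and TFR cells, none of them called. The second Selplg probe gave an average of -0.06 against -0.30 for the leading one.

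Fut4, the other fucosyltransferase, was dim, and its leading probe was above background on 11 of 20 arrays. It read 193 and 108 in pLN d12 TFH cells and 28.4 and 32.4 in PP GL7+ TFH cells, the first of the PP arrays not above background. In TFR cells it read 234 and 140 in pLN and 95.4 and 72.8 in PP. The groups did not overlap in either cell type, but the differences of -2.25 in TFH cells (limma adjusted p = 0.0538) and -1.12 in TFR cells (limma adjusted p = 0.248) did not pass. The TFH difference passed on the authors' own values (-2.32, limma adjusted p = 0.0493) and with RNA input as a covariate (0.0228). The average of -1.33 was called (SE 0.34, limma adjusted p = 0.0155), a 2.52-fold drop. Without slide 4 the TFH, TFR and average values were -2.16, -1.31 and -1.58, the last of them called. With normexp correction the average shrank to -0.59, under the size limit, and with slide as a random block the limma adjusted p was 0.483.

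The sialyltransferase genes were not called between tissues. St3gal4 averaged -0.39 (95% interval from -1.12 to 0.35) and St3gal6 -0.70 (from -1.30 to -0.09, limma adjusted p = 0.0823). St3gal6 read 360 and 565 in pLN d12 TFH cells against 174 and 194 in PP GL7+ TFH cells, which did not overlap, yet the difference of -1.29 did not pass (limma adjusted p = 0.148, or 0.0459 with RNA input as a covariate). Without slide 4 it was -1.22, the St3gal6 average was -0.72 and the St3gal4 average turned to 0.07. In Treg cells the tissues overlapped for both genes, with St3gal4 at 547 and 764 in pLN and 476 and 1000.5 in PP, and St3gal6 at 558 and 851 in pLN and 504 and 779 in PP.

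**Figure D3:**
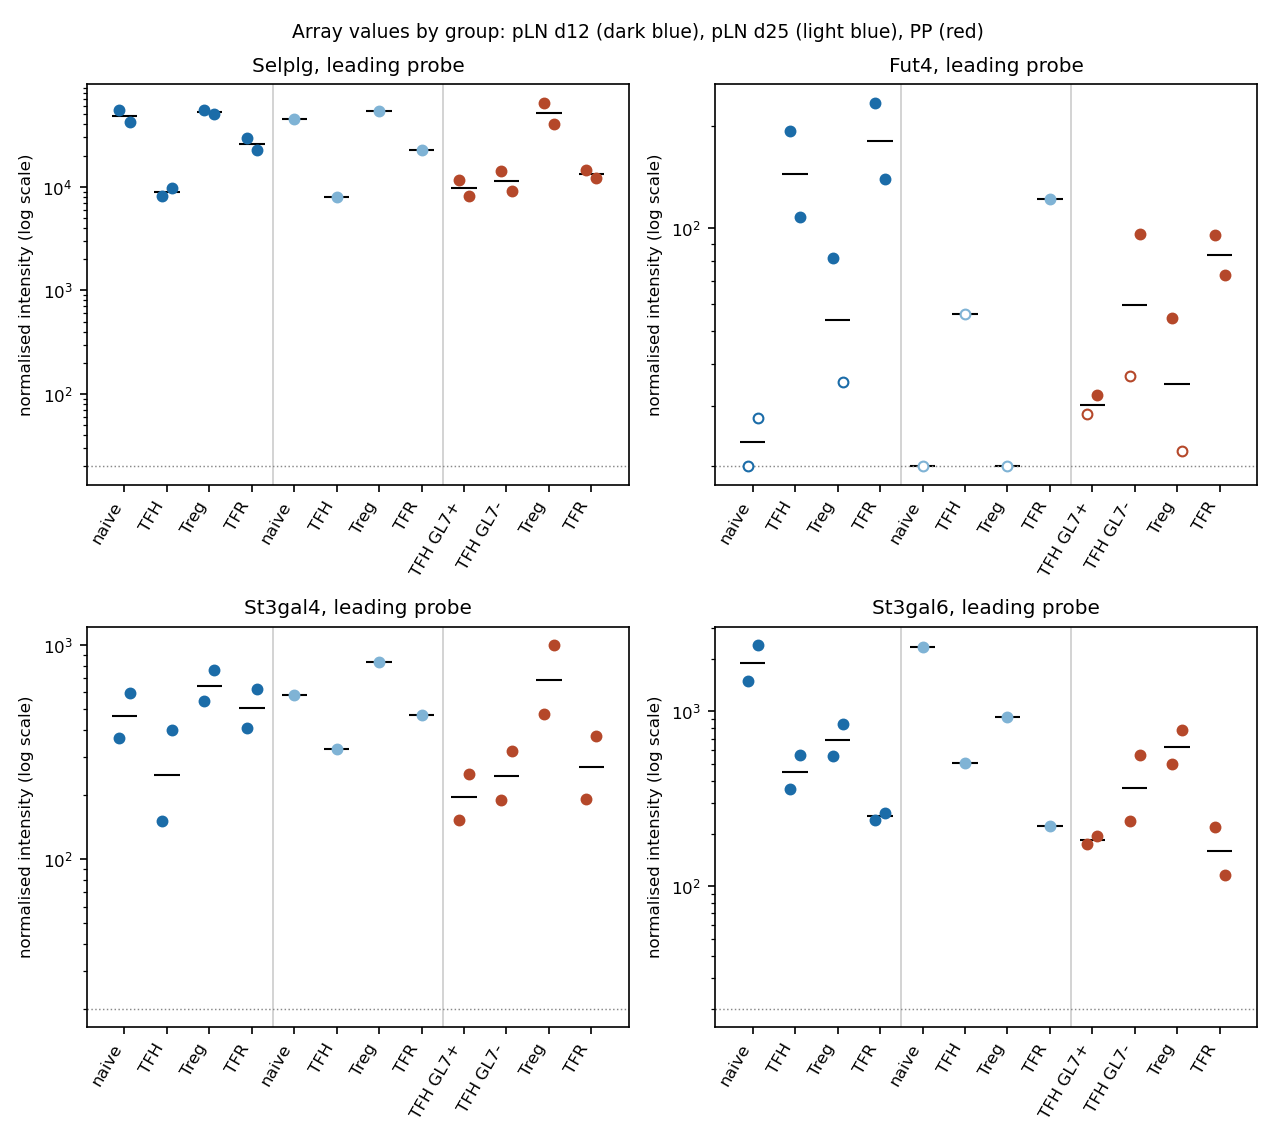
Normalised intensity (log scale) of the leading Selplg, Fut4, St3gal4 and St3gal6 probes on each of the 20 arrays, drawn as for Fut7 and Gcnt1. Selplg runs from 7952 to 64922, with its lowest values in TFH cells, and open points mark the 9 arrays on which Fut4 was not above background.

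Within pLN d12, the comparison with naive cells asked which genes differ between naive cells and TFH or Treg cells. Fut7, Gcnt1 and Fut4 were higher in TFH cells, and the carrier gene Selplg and the sialyltransferase gene St3gal6 lower. Thus 5 of the 6 genes were called there, 3 higher and 2 lower, where 14.7% of all probes were called, 9.27% higher and 5.48% lower. Gcnt1 was 26.0-fold higher than in naive cells (log2 difference 4.70, SE 0.73, limma adjusted p = 0.00115) and Fut7 7.44-fold higher (2.90, SE 0.45, limma adjusted p = 0.00114). The second-brightest Gcnt1 probe read 20, not above background, and 498 in naive cells and 526 and 1118 in TFH cells. The dimmest read 42.6 and 84.4 in naive cells, neither above background, and 583 and 576 in TFH cells. Fut4 was not above background on either naive array, at 20 and 27.8, so it was at least 2.35-fold higher in TFH cells, where the fit gave a limma adjusted p of 0.0103. That bound sets the TFH mean against the lowest signal detected on the naive arrays. Selplg was 5.39-fold lower (-2.43, SE 0.31, limma adjusted p = 0.000307), falling from 54806 and 42692 in naive cells to 8195 and 9841. St3gal6 was 4.20-fold lower (-2.07, SE 0.47, limma adjusted p = 0.0105), at 1493 and 2400 in naive cells. St3gal4, at 366 and 599 in naive and 151 and 402 in TFH cells, overlapped and was not called.

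Fut4 and St3gal6 lost these calls when TFH replicate 1 was left out (2.20 and -1.74, both at a limma adjusted p of 0.085). Fut4 also lost its call without naive replicate 1 (2.38, limma adjusted p = 0.0788) and St3gal6 without naive replicate 2 (-1.73, limma adjusted p = 0.0752). Slides 1 and 2 each held 1 array of every pLN d12 group, so the differences were also taken within a slide. They were 3.41 and 2.39 for Fut7, 5.63 and 3.77 for Gcnt1, and -2.74 and -2.12 for Selplg.

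Treg cells had raised Fut7 and Gcnt1 with Selplg at the naive level. In Treg against naive cells 2 of the 6 genes were called, both higher, where 3.76% of all probes were called and 2.86% were called higher. Fut7 was 7.13-fold higher (2.83, SE 0.45, limma adjusted p = 0.00492) and Gcnt1 11.0-fold higher (3.46, SE 0.73, limma adjusted p = 0.0242), while Selplg differed by 0.14 (95% interval from -0.54 to 0.82). The second-brightest Gcnt1 probe read 20 and 498 in naive cells and 444 and 622 in Treg cells, so its gap on slide 2 was small. On d25 it read 601 in naive and 731 in Treg cells. The dimmest probe read 42.6 and 84.4 in naive cells and 434 and 194 in Treg cells of d12. Fut7 lost its call without Treg replicate 1 (2.53, limma adjusted p = 0.0629). Gcnt1 lost its call without Treg replicate 1 (3.08, limma adjusted p = 0.218), Treg replicate 2 (3.84, 0.068) or naive replicate 1 (2.37, 0.191). Within slides 1 and 2 the differences were 3.95 and 1.72 for Fut7 and 4.93 and 1.99 for Gcnt1, smaller on slide 2, where the naive array was brighter for both genes. St3gal6 was lower by -1.46 without passing (limma adjusted p = 0.164), and had 0.0520 with slide as a fixed block and 0.0256, which passed, as a random block.

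TFR cells were then set against the other 2 effector populations of pLN d12. Fut7 was higher in TFR cells by 2.06 against Treg cells (SE 0.45, limma adjusted p = 0.0147), or 4.18-fold, the single gene of the 6 called there, where 8.35% of all probes were called and 5.79% were called higher. Against TFH cells it was higher by 2.0 (SE 0.45, limma adjusted p = 0.0264), or 4.0-fold, and Selplg was higher by 1.54 (SE 0.31, limma adjusted p = 0.0142), or 2.90-fold. These were the 2 calls in that comparison, in which 5.01% of all probes were called and 2.81% were called higher. TFR cells thus held the highest Fut7 of the 3 populations, with Selplg between Treg and TFH cells. Gcnt1 was higher than in Treg cells by 1.96 without passing (limma adjusted p = 0.127), and passed at 0.0341 with slide as a fixed block, which also called Selplg (-1.03, limma adjusted p = 0.00214 against 0.0567 without the block), Fut4 (1.75) and St3gal6 (-1.46). In TFH against Treg cells 1 gene was called, Selplg at -2.57 (SE 0.31, limma adjusted p = 0.000351), where 10.5% of all probes were called and 4.39% were called lower. The slide block added St3gal4 there, at -1.39 (limma adjusted p = 0.00111), and in TFR against TFH cells, at 1.04 (0.00898).

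The Fut7 calls in TFR cells each rested on few arrays. Against Treg cells the call was lost without TFR replicate 1 (2.09), TFR replicate 2 (2.04) or Treg replicate 2 (1.76), with limma adjusted p between 0.0794 and 0.124. Against TFH cells it was lost without TFR replicate 1 (2.02), TFR replicate 2 (1.98) or TFH replicate 1 (1.70), at 0.134 to 0.214. The Selplg call against TFH cells was lost without TFH replicate 1 (1.41) or TFR replicate 1 (1.35), at 0.121 and 0.128. TFR replicate 2 had the highest local background of the 20 arrays, 268 against at most 78 elsewhere. Within slides 1 and 2 the Fut7 differences were 1.74 and 2.39 against Treg cells and 2.28 and 1.72 against TFH cells. With all arrays and slide as a fixed block, Fut7 stayed called against Treg cells (limma adjusted p = 0.00583) and TFH cells (0.0118). Selplg stayed called against TFH cells in that fit (limma adjusted p = 0.000529).

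In PP the enzyme genes Fut7 and Gcnt1 were not called between cell types, whereas the carrier was called against Treg cells. Gcnt1 was not called between Treg, TFH and TFR cells of pLN d12 either. Its pLN calls were against naive cells, which were not sorted from PP. In TFR against Treg cells 2 of the 6 genes were called, both lower, where 9.25% of all probes were called and 3.02% were called lower. Selplg was 3.83-fold lower (-1.94, SE 0.31, limma adjusted p = 0.00238) and St3gal6 3.92-fold lower (-1.97, SE 0.47, limma adjusted p = 0.0212), from 504 and 779 in Treg to 219 and 116 in TFR cells. In GL7+ TFH against Treg cells the same 2 genes were called, by -2.39 (SE 0.31, limma adjusted p = 0.000549) and -1.77 (SE 0.47, limma adjusted p = 0.0321), where 9.87% of all probes were called and 4.62% were called lower. Fut7 was above Treg and GL7+ TFH cells on both PP TFR arrays, by 0.91 (95% interval from -0.09 to 1.91) and 1.59 (from 0.59 to 2.59), and neither passed (limma adjusted p = 0.272 and 0.102). With slide as a fixed block the second of these passed (limma adjusted p = 0.0419). No gene of the 6 was called in PP TFR against GL7+ TFH cells, where 3.44% of all probes were.

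The St3gal6 calls in PP were lost without Treg replicate 2 (-1.66 in TFR and -1.46 in TFH cells), without TFR replicate 2 (-1.52), and, in TFH cells, without any 1 of the 4 arrays compared (-2.08 to -1.46, limma adjusted p from 0.0528 to 0.205). St3gal4 was lower in the PP follicular cells without passing, by -1.36 in TFR cells (limma adjusted p = 0.179) and -1.82 in GL7+ TFH cells (limma adjusted p = 0.0651). With slide as a fixed block both passed, at 0.0014 and 0.000288, and within slides 4 and 5 the differences were -1.31 and -1.41 in TFR cells and -1.65 and -2.00 in TFH cells. Without slide 4, Selplg differed from PP Treg cells by -1.72 in TFR and -2.32 in GL7+ TFH cells. St3gal6 then differed by -2.74 and -2.01. Fut7 in PP TFR cells was then higher by 1.07 than in Treg and by 1.72 than in GL7+ TFH cells.

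**Figure D4:**
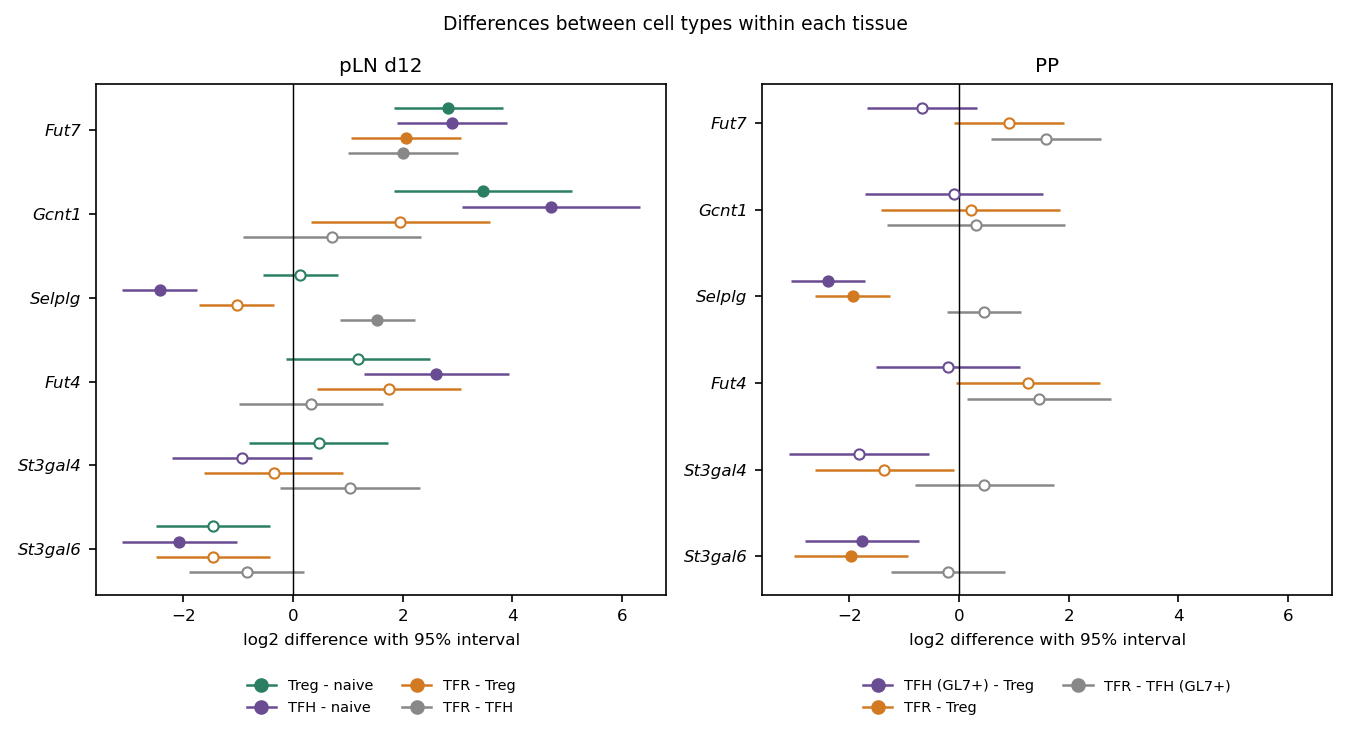
log2 differences between cell types within pLN d12 (left) and PP (right) for the leading probe of each gene, with 95% intervals from the limma fit. Filled points passed the threshold. In pLN, Fut7 is filled in all 4 contrasts drawn, which include those against naive cells, not sorted from PP. TFH against Treg cells is drawn only for PP, and Fut7 was not called in that contrast in pLN d12. In PP the filled points are those of Selplg and St3gal6 against Treg cells.

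Whether a difference between cell types itself differed between PP and pLN was tested for each pair. None of the 6 genes was called in these tests, in which 0.548% (TFR against Treg), 0.611% (TFR against TFH) and 0.323% (TFH against Treg) of all probes were (limma). Before adjustment, 0, 1 and 0 of the 6 had p under 0.05. For Fut7 the PP differences minus the pLN differences were -1.15 (95% interval from -2.57 to 0.26), -0.41 (from -1.83 to 1.00) and -0.74 (from -2.16 to 0.67). For Gcnt1 the widest was -1.74 in TFR against Treg cells (from -4.04 to 0.56). Selplg gave -1.08 in TFR against TFH cells (from -2.04 to -0.12, limma adjusted p = 0.617), which passed with slide as a fixed block (0.0475). The tissue differences are therefore given per cell type without an order between them.

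GL7+ and GL7- TFH cells of PP did not differ beyond the test in any of the 6 genes (limma, 0 called, 0 with an unadjusted p below 0.05, and 0.00898% of all probes called). The unpaired t-test that the study's methods name likewise called 0 of the 6. Gcnt1 lay lower on both GL7+ arrays, as given above, and Fut7 higher. Between d25 and d12 of pLN none of the 6 was called in any of the 4 cell types (limma, 0 with an unadjusted p below 0.05), where 0 to 0.0314% of all probes were. The d25 groups had 1 array each, assumed to vary like the other groups. The widest shift of Fut7 was in Treg cells, -0.98 (95% interval from -2.20 to 0.25), and in TFR cells Gcnt1 gave 0.70 (from -1.29 to 2.69).

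The other genes of the pathway and a set of known regulators were taken as lists, with 84 genes on the array and 69 tested beside the 6. In the average of the tissue comparison 3 of the 69 were higher and 6 lower in PP, with a median of -0.04, where 9.34% of all probes were called and 4.08% were called lower. No sialyltransferase, sulfotransferase, sugar-donor gene or glycosidase was among the 9. With slide as a random block, 486 probes were called in the average tissue comparison, against 2080 without the block. Values from that fit are not given for the listed genes, so their tissue calls do not account for slide. Among genes that start or extend the chains, B4galt5, a galactosyltransferase, was lower (-1.34, SE 0.10, limma adjusted p = 2.99e-05), and B3gnt3 was higher (1.04, SE 0.30, limma adjusted p = 0.0268). B3gnt3 was dim, above background on only 1 array each of pLN d12 Treg, TFH and TFR cells. It passed in no single cell type (limma adjusted p = 0.547 in Treg, 0.239 in TFH and 0.195 in TFR cells). Galnt3, which starts O-linked chains, was above background in PP on none of the arrays compared, while in pLN it read 107.4 to 125.6 in TFH and 216 to 351 in TFR cells (limma adjusted p = 1.81e-05).

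Of 8 listed regulators of Fut7 or Gcnt1, 3 were lower and 2 higher in PP on average, a comparison in which 9.34% of all probes were called and 4.08% were called lower. For these genes too, no fit with slide as a block is given. Klf2, a Krüppel-like factor of resting T cells, was lower by -1.53 and Rara, a retinoic acid receptor, by -1.51 (limma adjusted p = 0.00173 and 2.88e-05). Both were called in TFH and TFR cells, while in Treg cells Klf2 gave 0.03 and Rara -0.67 without passing. Tbx21, the T-box factor T-bet, was lower by -1.18 (limma adjusted p = 0.0245), a value carried by TFR cells, where it went from 1019 to 1591 in pLN to 120 to 175 in PP (-3.14, limma adjusted p = 0.0059), while Treg and TFH cells gave 0.21 and -0.63 without passing. Vdr, the vitamin D receptor, was higher by 2.10 (limma adjusted p = 9.64e-05), from 71.5 to 115 in pLN TFR cells to 1653 to 1983 in PP TFR cells, and in pLN Treg cells it was not above background. In TFH cells Vdr did not pass (-0.17, limma adjusted p = 0.862), at 2612 to 2790 in pLN and 2121 to 2702 in PP. Stat4, a signal transducer downstream of interleukin-12, was higher by 1.04 (limma adjusted p = 0.00333), called by cell type in TFR cells (1.83) and not in Treg (0.89) or TFH cells (0.40).

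In pLN TFH against naive cells 14 of the 69 were higher and 7 lower, where 9.27% of all probes were called higher and 5.48% lower. Among sialyltransferases the higher genes were St3gal1 (1.04), St3gal2 (1.96), St3gal5 (1.75), St6galnac2 and St6galnac6, and the lower one was St8sia6 (-4.85, SE 0.56, limma adjusted p = 0.000182). Neither St6galnac gene was above background in naive cells, so they were at least 2.73-fold and 12.8-fold higher. Chst2, a sulfotransferase that decorates selectin ligands, was higher by 4.86 (SE 0.41, limma adjusted p = 2.74e-05), and Tpst2, which sulfates tyrosines such as those of the Selplg product, was lower by -1.18. Galnt10 (-3.09) and Galnt6 (-1.16) were lower, and Galnt3 and B4galt4 were at least 1.89-fold and 6.76-fold higher than naive cells below background. B3gnt2 (1.02), Fut8 (1.82), Neu3 (1.46), Cd44 (3.06), Tbx21 (2.69) and Vdr (at least 43.9-fold) were also higher, and Klf2 (-3.38) and Rara (-2.67) also lower. Sialyltransferases and O-glycan starters thus held calls in both directions.

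Over the 12 group means of log2 intensity, Fut7 and Gcnt1 ran together (Pearson r = 0.874), as did Selplg and St3gal4 (0.914), while Fut7 and Selplg did not (0.0489). These are descriptions over groups that share slides and tissues. The genes most like Fut7 were Itgb1 (0.973), Hpf1, Hdac6, Prdx4 and Psmd7 (0.962 or higher). Those most like Gcnt1 were Lgals1 (0.971), Snai2, Zbtb32, S100a4 and S100a6 (0.959 or higher), and those most like Selplg were St8sia6 (0.990), Il4ra, Lppos, Tob1 and Pik3r1 (0.984 or higher). Fut4 was nearest to Prelid3b (0.980), Cdc25c, Kpna2, Cdk1 and Prr11, St3gal4 to Slc35g1 (0.982), Prps1, Mrps35, D16Ertd472e and Rrad, and St3gal6 to Smim26 (0.976), Fam78a, Ppp2r5a, 2610028H24Rik and Gucd1.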

How the data were processed

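RNA of 20 sorted and pooled samples was measured on 1-colour Agilent arrays (features per probe, 4; scanner software Agilent Feature Extraction 10.7.3.1, per the labels). The deposited scanner files give background-subtracted intensity per feature. The authors' own table holds intensity averaged over features and quantile normalised, with the 75th percentile set to 1500 and a floor of 20. It served as an alternative, and its median absolute log2 difference from the values here was 0.0347 to 0.0362 per array.

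Values were rebuilt from the scanner files by the same steps: the geometric mean per probe without outlier features (software flags, 1.42 interquartile ranges, pixel coefficient of variation above 0.5), quantile normalisation, the scaling and the floor, then log2. A probe was detected with 3 of 4 features well above background, and the 22264 probes for which some group had 2 detecting arrays were tested. No member probe was saturated. limma 3.58.1 in R 4.3.3 fitted 12 group means to all 20 arrays (8 residual degrees of freedom), tested on simulated data beforehand. Differences are on this log2 scale, and a lower bound for a probe below background uses the lowest detected signal per array. Arrays are pools numbered in deposition order, so p-values measure the spread between pools. The number of arrays limits the precision.

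Each gene's leading probe is its brightest on average. Of its other tested probes, all 4 pointed the same way as the leading probe in every comparison the latter called. They were themselves called in 7 of 8 such comparisons for Fut7, 2 of 5 and 4 of 5 for Gcnt1, and 4 of 5 for Selplg. Listed genes were named where called in the average tissue comparison, in at least 2 of 3 cell types, or in TFH against naive cells of pLN d12. Of these, 1 is counted but not reported here by name. Genes most alike had the highest Pearson r over group means. The members and lists were chosen with earlier results of these data known. Promoter sequences are RefSeq's. The alternatives tried were another scaling, the authors' table, normexp, all probes, no floor, slide as a block, RNA input (40 or 50 ng), only the compared groups, and leaving out slide 4 or single arrays.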

Additional observations from a re-analysis of the deposited data

How the results depend on the processing

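The choices were tried 1 at a time, 26 in all, on 120 results (each of the 6 genes in each of the 20 comparisons). Of the 23 called results, none turned its sign and 4 kept the call throughout: Fut7 in PP against pLN TFR cells and in the average, and Selplg in pLN TFH cells against naive and against Treg cells. Of the 97 others, 36 turned their sign somewhere and 14 were called somewhere. Fits with only the compared groups, which leave few degrees of freedom, lowered the number of genes called to 0 in PP against pLN Treg and TFH cells, in pLN Treg against naive, TFR against Treg and TFR against TFH cells and in both PP comparisons with Treg cells, and to 1 in PP against pLN TFR cells and in pLN TFH against naive cells.

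Testing all probes left 1 gene called in PP against pLN TFH cells, pLN Treg against naive, pLN TFR against TFH, PP TFR against Treg and PP TFH against Treg cells. Without slide 4 there were 0 in PP against pLN Treg and TFH cells and 1 in PP TFH against Treg cells. Slide as a random block left 1 in PP against pLN TFH cells and in the average. As a random or fixed block it gave 5 in pLN TFR against Treg cells, 2 in pLN TFH against Treg cells, 1 in PP TFR against TFH cells and 1 in the tissue difference of TFR against TFH cells. RNA input as a covariate gave 4 in PP against pLN TFH cells, 3 in pLN TFR against Treg, 2 in pLN TFH against Treg and 1 in PP TFR against TFH cells. In pLN TFR against Treg cells 75th percentile scaling and normexp gave 2 each. The correlation within slides was 0.742.

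Leaving out single arrays gave 3 to 5 genes called in pLN TFH against naive cells, 0 to 2 in Treg against naive and TFR against TFH cells, 0 to 1 in pLN TFR against Treg cells, 1 to 2 in PP TFR against Treg cells, and 1 in PP against pLN TFH and PP TFH against Treg cells. Among the uncalled values that turned their sign were Selplg in PP against pLN Treg cells (-0.40 to 0.29 without single arrays), Selplg in PP against pLN TFH cells (-0.0034 with 75th percentile scaling, -0.15 without slide 4, and -0.15 to 0.39 without single arrays) and the St3gal4 average (0.074 without slide 4). The cause of these changes was not tested. Replicate numbers follow deposition order, since the labels give none, so samples were paired only by slide, through the slide block and the differences within slides. Fut4, above background on 11 of 20 arrays, is limited by its signal.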
